A study of Homo sapiens with 6 samples.

Results

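Metallothioneins are small proteins rich in cysteine that bind zinc, copper and cadmium, and they buffer the zinc that a cell holds free. The genes described here are 10 genes of zinc handling, chosen by symbol: the metallothioneins MT1E, MT1F, MT1G, MT1H, MT1M, MT1X and MT2A, the transcription factor MTF1, and the zinc transporters SLC30A1 and SLC39A14. Each symbol matched 1 row of the deposited table, through the Ensembl gene ID in release 29 of GENCODE, out of 58676 gene rows in all. MTF1 binds zinc and, through short promoter elements called metal response elements, switches on the metallothionein genes and SLC30A1. SLC30A1, also known as ZnT1, carries zinc out of the cell, and SLC39A14, also known as ZIP14, carries zinc, iron and manganese into it. In liver, metallothionein and SLC39A14 transcripts are known to be induced during the acute-phase response.

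RNA from human cells whose labels read HCC cell line, grown in DMEM with 10% FBS, was sequenced in 3 libraries labelled knockdown and 3 labelled control. The titles of the knockdown libraries name a sponge, a transcript that takes up a microRNA, and the series title names miR-19a. The titles of the control libraries carry only the number 238, and the labels give no other allele or agent, no name for the line and no number of clones or cultures. In knockdown replicate 2 values and gene IDs are out of step (rank correlation with the other libraries of 0.017 to 0.019), so levels are given for knockdown replicates 1 and 3 and control replicates 1, 2 and 3.

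The deposited values are RPKM, reads scaled by the length of all annotated exons of a gene together and by the library's assigned reads. Levels of different genes therefore depend on that annotated length, which need not be the length of the RNA present. The reads behind them could be recovered, and came to 9296308 and 15198231 in knockdown replicates 1 and 3, and 9181567, 1948940 and 19605312 in control replicates 1, 2 and 3. Control replicate 2 is therefore the least precise library. All 13 hepatocyte and liver cancer markers on the list used were expressed, with ALB, which encodes albumin, at 816.9 and 869.6 RPKM in knockdown and 652.4 to 950.9 RPKM in control, and AFP, a fetal liver protein, at 230.9 and 260.1 RPKM in knockdown and 217.3 to 312.5 RPKM in control. Summed over that list, RPKM was 3280 and 3721 in knockdown and 3126 to 3570 in control. Blood and immune markers summed to 46.3 and 52.49 RPKM in knockdown and 44.48 to 51.38 RPKM in control, and fibroblast and endothelial markers to 68.3 and 72.37 RPKM in knockdown and 63.93 to 82.93 RPKM in control. Since separate cultures are not stated for the replicates, the p-values cover spread from library to library, possibly technical. In bulk RNA, fewer cells expressing a gene and less RNA per cell cannot be told apart.

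Promoters of these genes and the microRNA of the study are shown first. RefSeq's promoter table (GRCh38.p14, 250 bases before to 50 after each gene's start) held 5 of the 10 genes. RefSeq and GENCODE do not place every start at the same base, so the windows need not begin at the GENCODE gene ends given further on: the MT2A window lies within the GENCODE gene and the SLC30A1 window upstream of it. The metal response element core was searched on both strands as TGCACNC and TGCGCNC, overlapping matches included, with a window that matched on both strands counted once. Matches are in capitals, and the sequences run 5′ to 3′ on the gene's strand. A match is a description of the letters and no proof of a bound site. MT2A (chr16:56608334-56608633, plus strand), MT1H (chr16:56669564-56669863, plus strand), MT1X (chr16:56682220-56682519, plus strand) and SLC30A1 (chr1:211579112-211579411, minus strand) are printed because 3 metallothioneins with very different levels and the exporter can be set side by side.
MT2A: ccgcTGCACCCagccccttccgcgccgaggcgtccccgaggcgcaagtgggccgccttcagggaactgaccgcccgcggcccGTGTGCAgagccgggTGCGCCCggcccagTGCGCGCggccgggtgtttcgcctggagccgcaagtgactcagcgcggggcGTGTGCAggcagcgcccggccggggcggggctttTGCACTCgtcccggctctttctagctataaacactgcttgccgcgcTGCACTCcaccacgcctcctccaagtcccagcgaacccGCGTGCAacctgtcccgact
MT1H: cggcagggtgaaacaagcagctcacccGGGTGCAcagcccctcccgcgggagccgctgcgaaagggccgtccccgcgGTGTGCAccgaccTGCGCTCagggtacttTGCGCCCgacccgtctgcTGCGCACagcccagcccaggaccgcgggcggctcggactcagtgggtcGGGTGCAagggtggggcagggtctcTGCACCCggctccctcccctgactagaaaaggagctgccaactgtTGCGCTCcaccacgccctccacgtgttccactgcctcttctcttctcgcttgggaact
MT1X: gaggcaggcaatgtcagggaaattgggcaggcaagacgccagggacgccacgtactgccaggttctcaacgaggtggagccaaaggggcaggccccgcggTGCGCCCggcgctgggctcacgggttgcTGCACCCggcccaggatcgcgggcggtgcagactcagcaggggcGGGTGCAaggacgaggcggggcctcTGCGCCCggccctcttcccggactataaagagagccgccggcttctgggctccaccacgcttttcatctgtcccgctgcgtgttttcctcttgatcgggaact
SLC30A1: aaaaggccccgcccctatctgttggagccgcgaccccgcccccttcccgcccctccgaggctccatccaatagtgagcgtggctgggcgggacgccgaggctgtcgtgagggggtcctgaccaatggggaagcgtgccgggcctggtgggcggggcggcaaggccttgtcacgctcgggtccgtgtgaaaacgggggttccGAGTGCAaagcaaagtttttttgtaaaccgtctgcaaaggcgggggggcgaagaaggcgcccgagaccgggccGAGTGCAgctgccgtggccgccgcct
MT2A and MT1H each held 8 matches, a number that 0.02% of 35116 promoters of the same length reached. MT1X held 4, a number reached by 0.601% of promoters, and SLC30A1 held 2, a number reached by 8.6%. MTF1 held 0 in this window, and 29.6% of all promoters held at least 1.

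The mature miR-19 sequences of RefSeq are printed with the seed, bases 2 to 8, in capitals, because the series title names miR-19a. miR-19a (chr13:91350939-91350961, plus strand) and miR-19b (chr13:91351245-91351267, plus strand, with a copy at chrX:134169683-134169705, minus strand; all GRCh38.p14) share that seed.
hsa-miR-19a-3p: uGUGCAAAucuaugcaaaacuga
hsa-miR-19b-3p: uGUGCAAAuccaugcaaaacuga
The match to the seed, TTTGCAC, was found in the longest 3' UTR of 1 of the 10 genes, MTF1, once, starting at base 4894 of 5572. In all coding genes with a 3' UTR in GENCODE, 2753 of 19900 held it, or 13.8%. The MTF1 site, from the GENCODE transcript on the minus strand of chromosome 1, is printed with the match in capitals.
MTF1: cataaaaccttTTTGCACcaaaacccaggg
The 3' UTRs of the 7 metallothioneins, 147 to 397 bases long, those of SLC30A1 (3823 bases) and SLC39A14 (3046 bases) held no match.

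Over the 5 libraries the levels spanned a wide range, with MT2A (mean 46.3 RPKM) and SLC39A14 (mean 46.0 RPKM) highest, MT1E next at 15.5 RPKM, then MT1F at 7.27, MT1G at 5.98, SLC30A1 at 4.38, MTF1 at 2.31, MT1X at 2.05 and MT1M at 0.626 RPKM. MT1H was listed at 0 in all 5. This order depends on the annotated exon lengths. Summed over the libraries, MT1F had 763 reads over 1889 bases of exon and MT1G had 234 reads over 750 bases. The mean level of MT2A was above 93.8% of all tested genes, that of SLC39A14 above 93.7% and that of MTF1 above 33.8%. Neighbours in this order whose ranges over the libraries overlapped were MT2A and SLC39A14, MT1F and MT1G, MT1G and SLC30A1, and MTF1 and MT1X. MT2A lay above SLC39A14 in 3 of 5 libraries. The ranges of SLC39A14 and MT1E, of MT1E and MT1F, of SLC30A1 and MTF1, and of MT1X and MT1M did not overlap.

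**Figure D1:**
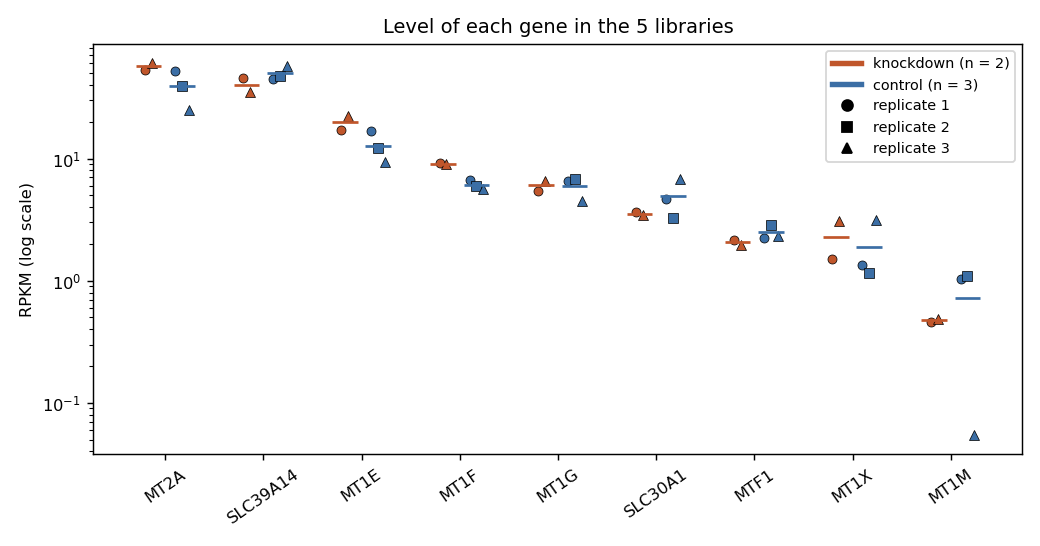
RPKM on a log scale of 9 of the 10 genes, in order of mean level, in knockdown (left of each pair, n = 2) and control libraries (right, n = 3); symbols mark the replicate number and bars the group mean, and MT1H, listed at 0, is not drawn. MT2A, MT1E and MT1F lie higher in knockdown, and control replicate 3 is the lowest library for each of them.

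The comparison of knockdown with control asked whether RNA levels differ between the libraries titled sponge and the control libraries. Uptake of miR-19 by the sponge was not measured here. Metallothionein RNA was higher in both knockdown libraries: the summed level of the 7 genes was 87.05 and 102.4 RPKM in knockdown replicates 1 and 3, against 84.63, 66.76 and 47.82 RPKM in control replicates 1, 2 and 3. The groups did not overlap, but knockdown replicate 1 and control replicate 1 lay close together. The means were 94.7 ± 10.9 RPKM (SD, n = 2) in knockdown and 66.4 ± 18.4 RPKM (SD, n = 3) in control, a log2 difference of 0.54. Without control replicate 3 it came to 0.33, and without control replicate 1 to 0.74. SLC30A1, SLC39A14 and MTF1 had lower means in knockdown. No gene of the 10 passed the test across all genes (limma on log2(RPKM + 0.5), Benjamini-Hochberg adjusted p under 0.05), and 0 of 15408 tested genes did, which is 0% of them. The test included 8 of the 10 genes, those reaching 0.5 RPKM in 3 or more libraries, and left out MT1H and MT1M.

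Of the 8 tested genes, the lower knockdown value exceeded all 3 controls for 3 (MT2A, MT1E and MT1F) and both knockdown values were below all of them for 1 (MTF1). Over all tested genes, 14.3% had both knockdown libraries above and 13.6% both below. At an unadjusted p under 0.05, 1 of the 8, MT1F, was higher and 0 were lower, against 3.8% and 2.54% of all tested genes. The 5 tested metallothioneins had log2 differences from 0.03 to 0.64 with a median of 0.55, while the median of all tested genes was 0.00 and 95% of them lay between -0.77 and 0.93.

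**Figure D2:**
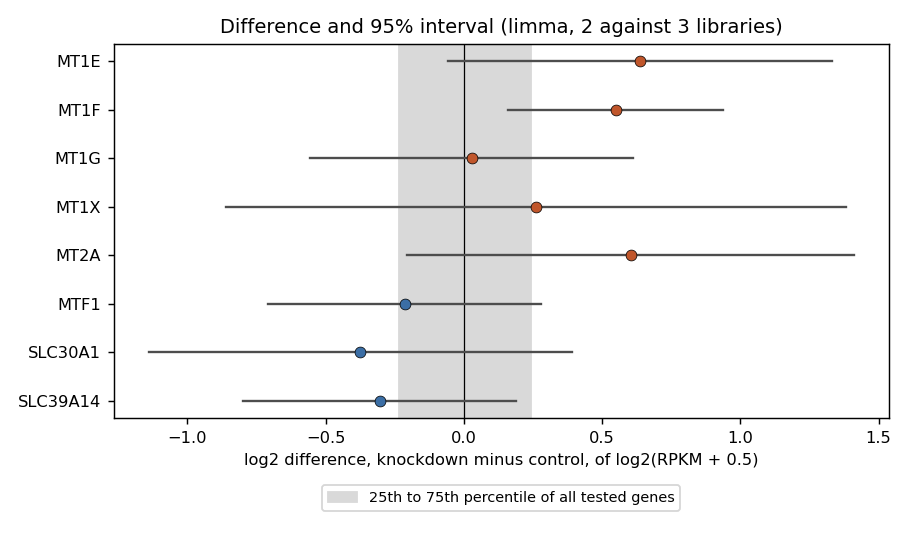
Log2 difference (knockdown minus control, on log2(RPKM + 0.5)) of the 8 tested genes with the 95% interval from limma, and the range from the 25th to the 75th percentile of all 15408 tested genes in grey (-0.24 to 0.24). The 5 metallothioneins lie at or right of 0 and the other 3 genes left of it, and the interval of MT1F alone leaves out 0.

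MT2A (ENSG00000125148, chromosome 16 from 56608199 to 56609497 of GRCh38) encodes the main metallothionein of most human tissues. It was at 53.3 and 60.9 RPKM in knockdown replicates 1 and 3, against 52.4, 39.5 and 25.2 RPKM in control replicates 1, 2 and 3. Both knockdown libraries were above all controls, but knockdown replicate 1, with an exact 95% Poisson interval of 49.3 to 57.6 RPKM, could not be told from control replicate 1, with 48.4 to 56.7 RPKM. The Poisson intervals here cover counting error only. Knockdown minus control came to 0.60 on the log2 scale (SE 0.32, 95% interval -0.20 to 1.41, limma adjusted p = 0.71). Without control replicate 3 it came to 0.32, and without control replicate 1 to 0.84.

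MT1E (ENSG00000169715, chromosome 16 from 56625475 to 56627112) followed MT2A in every library. It was at 17.1 and 22.4 RPKM in knockdown replicates 1 and 3, against 16.7, 12.2 and 9.36 RPKM in control replicates 1, 2 and 3. The order of the 5 libraries was the same as for MT2A, and knockdown replicate 1 (Poisson interval 14.6 to 19.9 RPKM) again overlapped control replicate 1 (14.2 to 19.5 RPKM). This gave a log2 difference of 0.64 (SE 0.28, 95% interval -0.06 to 1.33, limma adjusted p = 0.71).

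MT1F (ENSG00000198417, chromosome 16 from 56657694 to 56660698) separated the groups more clearly. It was at 9.23 and 8.95 RPKM in knockdown replicates 1 and 3, against 6.63, 5.98 and 5.59 RPKM in control replicates 1, 2 and 3. The knockdown values lay close together and above every control. Behind them were 162 and 257 reads in knockdown and 115, 22 and 207 reads in control. The 22 reads of control replicate 2 make its value imprecise, and counting intervals were not computed for this gene. The log2 difference was 0.55 (SE 0.16, 95% interval 0.16 to 0.94, unadjusted p = 0.0143 and adjusted p = 0.71 in limma). With the trends of each library with exon length and GC content taken out it was 0.40.

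MT1G and MT1X did not follow these 3 genes. MT1G (ENSG00000125144, chromosome 16 from 56666731 to 56668065) was at 5.45 and 6.58 RPKM in knockdown replicates 1 and 3, against 6.54, 6.84 and 4.49 RPKM in control replicates 1, 2 and 3. The groups overlapped, and the log2 difference of 0.03 (SE 0.23, 95% interval -0.56 to 0.61, limma adjusted p = 0.98) was below 0 without control replicate 3, at -0.15, and without knockdown replicate 3, at -0.10. MT1X (ENSG00000187193, chromosome 16 from 56682424 to 56684196) was at 1.52 and 3.08 RPKM in knockdown replicates 1 and 3, against 1.35, 1.16 and 3.17 RPKM in control replicates 1, 2 and 3. Its high libraries were replicate 3 of both groups, which are also the 2 deepest, and the part of depth in this was not tested. The log2 difference was 0.26 (SE 0.45, 95% interval -0.86 to 1.38, limma adjusted p = 0.89), and it was 0.68 without knockdown replicate 1, 0.62 without control replicate 3 and -0.15 without knockdown replicate 3.

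MT1M and MT1H were at the floor. MT1M (ENSG00000205364, chromosome 16 from 56632233 to 56633986) was at 0.457 and 0.489 RPKM in knockdown replicates 1 and 3, against 1.04, 1.09 and 0.0542 RPKM in control replicates 1, 2 and 3. Behind these values were 4 and 7 reads in knockdown and 9, 2 and 1 reads in control. The controls spanned the knockdown values, and the main test left this gene out. In the alternative that kept every gene above 0 in 1 library, its log2 difference was -0.19 (limma adjusted p = 0.92). MT1H (ENSG00000205358, chromosome 16 from 56669814 to 56671129) had 0 reads in all 5 libraries. A count of 0 allows up to 3 reads, which would be 0.446 and 0.273 RPKM in knockdown replicates 1 and 3 and 0.452, 2.13 and 0.212 RPKM in control replicates 1, 2 and 3.

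**Figure D3:**
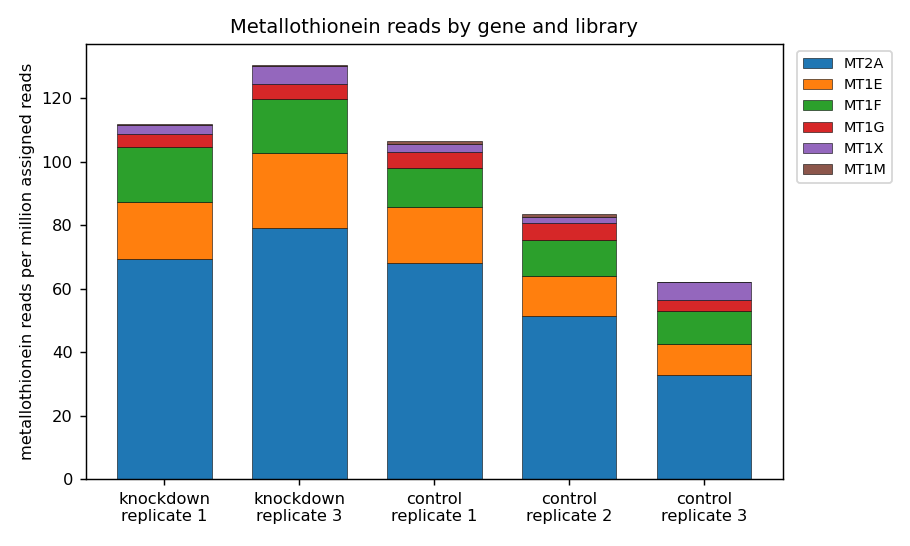
Metallothionein reads in RPM (reads scaled to a common number of assigned reads), stacked by gene, for knockdown replicates 1 and 3 and control replicates 1, 2 and 3; MT1H had none. Totals were 111.9 and 130.5 in knockdown and 106.4, 83.64 and 62.13 in control, and MT2A made up over 50% of each bar.

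MT2A made up the majority of the metallothionein reads in each library. It took 61.9% of them (exact 95% binomial interval 58.9 to 64.9%) in knockdown replicate 1 and 60.7% (58.5 to 62.8%) in knockdown replicate 3, against 64.0%, 61.3% and 52.6% in control replicates 1, 2 and 3. Control replicate 3 was the lowest, at 49.8 to 55.5%. MT1E took 16.1% and 18.1% in knockdown replicates 1 and 3, against 16.5%, 15.3% and 15.8% in control replicates 1, 2 and 3. MT1X took 2.40% (1.56 to 3.53%) and 4.19% (3.35 to 5.16%) in knockdown replicates 1 and 3, against 2.25% (1.42 to 3.39%), 2.45% (0.673 to 6.16%) and 9.03% (7.48 to 10.8%) in control replicates 1, 2 and 3. Its largest share was thus in a control, and its share there lay outside the counting intervals of the other 4 libraries.

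Metallothionein genes resemble each other in parts of their sequence, and reads from stretches they share can be lost or moved between them by counting, so the single values are uncertain. Of all 50-base windows of their annotated transcripts, 16.5% for MT1G, 15.8% for MT1H, 9.87% for MT1M, 7.10% for MT1E, 3.02% for MT2A and 1.22% for MT1F also occurred in a transcript of another gene. For MT1X the share was 18.3%, and most of it was shared with AC026461.1, a noncoding transcript annotated over MT1X on the same strand that was listed at 0 in all 5 libraries. With 100-base windows MT1H shared 1.39% and MT1X 11.3%, and the other 5 metallothioneins shared 0%. On the opposite strand, AL929472.4 overlaps MTF1 and AC105910.1 overlaps SLC39A14, and they reached at most 0.074 and 0.272 RPKM. Read length and how such reads were treated were not given in the sources used here.

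Among the regulators, MTF1 (ENSG00000188786, chromosome 1 from 37809567 to 37859620), the zinc-sensing transcription factor, was at 2.17 and 1.95 RPKM in knockdown replicates 1 and 3, against 2.24, 2.88 and 2.33 RPKM in control replicates 1, 2 and 3. Both knockdown libraries lay below all controls, by a margin within counting error for knockdown replicate 1 (Poisson interval 1.85 to 2.53 RPKM, against 1.91 to 2.61 RPKM in control replicate 1). The log2 difference was -0.21 (SE 0.20, 95% interval -0.71 to 0.28, limma adjusted p = 0.79), -0.12 without control replicate 2 and -0.05 with length and GC trends removed. MTF1 is the gene whose 3' UTR holds the miR-19 seed match printed above.

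SLC30A1 (ENSG00000170385, chromosome 1 from 211571568 to 211578742), the zinc exporter of the plasma membrane, was at 3.66 and 3.44 RPKM in knockdown replicates 1 and 3, against 4.70, 3.28 and 6.83 RPKM in control replicates 1, 2 and 3. The knockdown values lay inside the range of the controls, but only control replicate 2, with 35 reads, was below them. On the log2 scale the difference was -0.37 (SE 0.31, 95% interval -1.14 to 0.39, limma adjusted p = 0.77). Without control replicate 3 it came to -0.13, and without control replicate 2 to -0.61.

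SLC39A14 (ENSG00000104635, chromosome 8 from 22367249 to 22434129), the importer, was at 45.5 and 35.01 RPKM in knockdown replicates 1 and 3, against 44.4, 47.5 and 57.5 RPKM in control replicates 1, 2 and 3. The groups overlapped, with knockdown replicate 1 above control replicate 1. The log2 difference was -0.31 (SE 0.20, 95% interval -0.80 to 0.19, limma adjusted p = 0.73). It was -0.12 without knockdown replicate 3, -0.49 without knockdown replicate 1 and -0.20 without control replicate 3. It is the member with the most reads, at 2939 and 3694 reads in knockdown and 642 to 7826 reads in control.

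**Figure D4:**
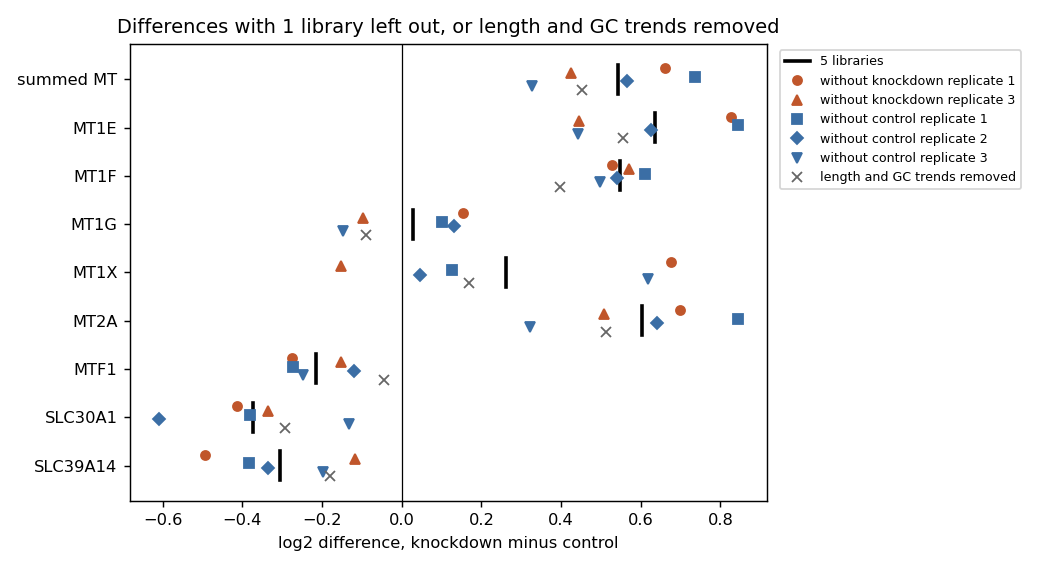
Log2 difference (knockdown minus control) of the summed metallothionein level and of the 8 tested genes, with all 5 libraries (black bars), with 1 library left out and with the trend of each library with exon length and GC removed. MT1G and MT1X cross 0, while MT2A, MT1E, MT1F and the sum stay right of it and MTF1, SLC30A1 and SLC39A14 left of it.

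The metallothioneins have short exons (723 to 1889 bases in all) and the other 3 genes long ones (5474 to 8024 bases), and length and GC content move with the difference. Longer exons went with lower differences across all tested genes (Spearman's rho -0.23) and higher GC content with higher ones (rho 0.27), where genes are not independent replicates. The 1935 tested genes with under 2000 bases of exon and over 50% GC had a median log2 difference of 0.19. With the trends removed the log2 difference was 0.51 for MT2A, 0.56 for MT1E, 0.40 for MT1F, -0.29 for SLC30A1 and -0.18 for SLC39A14, and the sum of the metallothioneins was at 0.45. MT1X was then at 0.17, MT1G at -0.09 and MTF1 at -0.05. Control replicate 3, the deepest library, was lowest of the 5 for MT2A, MT1E, MT1F and MT1G and highest for SLC30A1 and SLC39A14.

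The other metallothionein genes added few reads. Of 14 listed, 7 were at 0 in all 5 libraries, MT3, the brain form, and MT4, the form of stratified epithelium, among them, and 3 were tested. MT1A was at 7.33 and 7.15 RPKM in knockdown replicates 1 and 3, against 7.15, 10.4 and 3.99 RPKM in control replicates 1, 2 and 3, and the groups overlapped (log2 difference 0.10, SE 0.38, limma adjusted p = 0.95). The pseudogene MT1L, which lies between MT2A and MT1E, was at 3.14 and 4.32 RPKM in knockdown, against 2.65, 0 and 2.11 RPKM in control (log2 difference 1.39, SE 0.83, limma adjusted p = 0.73). Both knockdown libraries lay above all controls, as for 14.3% of all tested genes. The reads behind this were few, 12 and 27 in knockdown and 10, 0 and 17 in control. The pseudogene MT1DP had 4 and 0 reads in knockdown and 6, 0 and 4 reads in control (log2 difference -0.31, SE 1.09, limma adjusted p = 0.95).

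Zinc transporters outside the 10 genes gave no common direction. Of 9 other SLC30 genes, which mostly move zinc out of the cytosol, 5 were tested, and of these 2 had a positive log2 difference and 3 a negative one. The median of -0.20 changed sign with the libraries used, at 0.06 without control replicate 3 and 0.05 without knockdown replicate 3. None passed (limma adjusted p), and 0 were past an unadjusted p of 0.05. SLC30A6, a Golgi zinc transporter, was at 5.81 and 5.44 RPKM in knockdown replicates 1 and 3, against 6.56, 6.35 and 9.16 RPKM in control replicates 1, 2 and 3 (log2 difference -0.34, SE 0.21, limma adjusted p = 0.73). SLC30A10, known for exporting manganese, was at 4.53 and 2.76 RPKM in knockdown, against 3.68, 3.91 and 4.90 RPKM in control, and the groups overlapped (log2 difference -0.20, SE 0.26, limma adjusted p = 0.85).

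Of 13 other SLC39 genes, which mostly move metal into the cytosol, 9 were tested, 4 of them higher than 0 and 5 lower, with 0 past either threshold. Their median of -0.10 was 0.09 without control replicate 3, 0.07 without knockdown replicate 1, 0.04 without control replicate 1 and -0.30 without control replicate 2. All controls were below both knockdown libraries for SLC39A5, SLC39A7 and SLC39A13 and above them for SLC39A6 and SLC39A9, that is for 3 and 2 of the 9, against 14.3% and 13.6% of all tested genes. SLC39A6, a plasma membrane importer, was at 13.7 and 9.74 RPKM in knockdown replicates 1 and 3, against 14.4, 15.6 and 19.1 RPKM in control replicates 1, 2 and 3 (log2 difference -0.47, SE 0.22, limma adjusted p = 0.71). SLC39A13 was at 8.07 and 8.01 RPKM in knockdown replicates 1 and 3, against 6.61, 4.70 and 6.97 RPKM in control replicates 1, 2 and 3 (log2 difference 0.39, SE 0.21, limma adjusted p = 0.71). The most abundant of these transporters, SLC39A7, which releases zinc from the endoplasmic reticulum, was at 67.2 and 74.2 RPKM in knockdown and at 63.9, 41.5 and 63.7 RPKM in control.

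**Figure D5:**
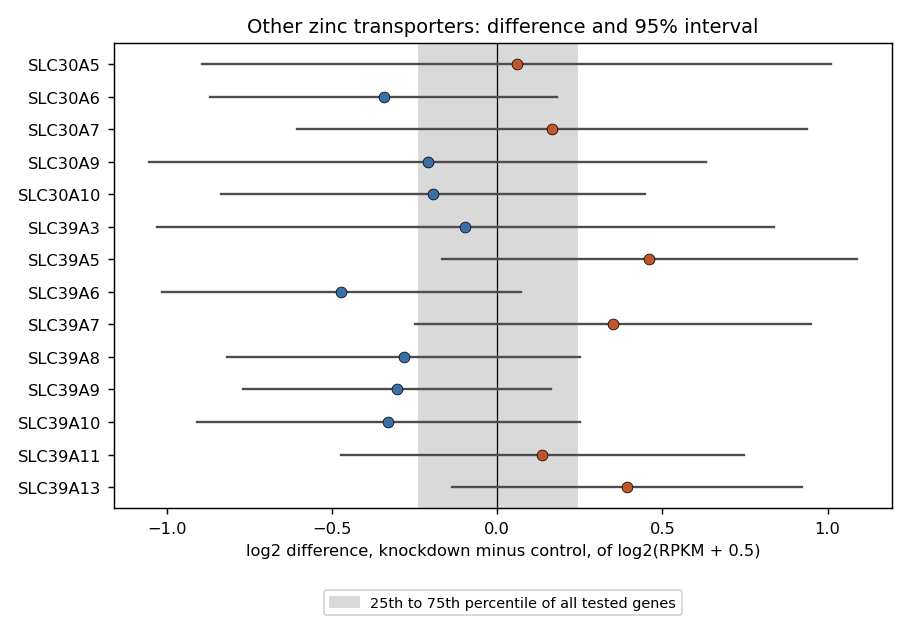
Log2 difference (knockdown minus control, on log2(RPKM + 0.5)) of the 14 other zinc transporters tested, SLC30 genes above and SLC39 genes below, with the 95% interval from limma and the range from the 25th to the 75th percentile of all tested genes in grey. Points lie on both sides of 0 in both families and every interval holds 0.

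Other genes known to respond to heavy metals had mostly negative differences, and none passed. Of 10 listed, 9 were tested, 2 with a positive log2 difference and 7 with a negative one (median -0.25, or -0.16 without control replicate 3), and 0 were past an unadjusted p of 0.05. Both knockdown libraries were below all controls for 5 of the 9, against 13.6% of all tested genes. These were GCLC and GCLM, the subunits of the enzyme that starts glutathione synthesis, the heat shock gene HSPA1A, SLC7A11 and TXNRD1. HMOX1, heme oxygenase, was at 15.8 RPKM in both knockdown libraries and at 15.4, 11.3 and 16.03 RPKM in control replicates 1, 2 and 3. TXNRD1, thioredoxin reductase, was at 16.3 and 13.7 RPKM in knockdown, against 20.6, 16.98 and 24.98 RPKM in control replicates 1, 2 and 3 (log2 difference -0.45, SE 0.21, limma adjusted p = 0.71). SLC7A11, the cystine transporter, was at 0.870 and 0.962 RPKM in knockdown, against 1.15, 1.86 and 1.70 RPKM in control (log2 difference -0.53, SE 0.25, limma adjusted p = 0.71).

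Of 12 copper genes, 10 were tested, 5 of them higher than 0 and 5 lower. The median of 0.10 took either sign, at -0.11 without control replicate 3, -0.01 without knockdown replicate 3 or with length and GC trends removed, and 0.19 without control replicate 2. ATP7B, the copper pump of hepatocytes, was at 5.42 and 3.63 RPKM in knockdown, against 5.44, 6.74 and 6.09 RPKM in control (log2 difference -0.41, SE 0.22, limma adjusted p = 0.71). SLC31A1, the copper importer, was at 27.6 and 22.7 RPKM in knockdown, against 28.1, 30.8 and 31.3 RPKM in control (log2 difference -0.26, SE 0.16, limma adjusted p = 0.73). Both knockdown libraries were below all 3 controls for 3 of the 10, ATP7B and SLC31A1 among them, against 13.6% of all tested genes. They were above all controls for 0. Replicate 1 of knockdown and of control lay close together, with 487 and 483 reads for ATP7B and 1315 and 1324 reads for SLC31A1.

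Metallothionein genes are also known to respond to glucocorticoids and to interleukin 6. The glucocorticoid list held 9 genes, known targets and the receptor itself. Of these 7 were tested, 4 of them higher than 0 and 3 lower, with the receptor among the lower ones. Their median was 0.04, or -0.06 without control replicate 2. At an unadjusted p under 0.05, 2 of the 7 were higher and 1 was lower, against 3.8% and 2.54% of all tested genes. DUSP1, a phosphatase that acts on MAP kinases, was at 105.9 and 115.0 RPKM in knockdown, against 86.3, 72.9 and 75.5 RPKM in control (log2 difference 0.50, SE 0.16, limma adjusted p = 0.71). FKBP5, a chaperone of the glucocorticoid receptor, was at 1.81 and 1.36 RPKM in knockdown, against 2.37, 2.80 and 2.94 RPKM in control (log2 difference -0.62, SE 0.21, limma adjusted p = 0.71). The interleukin 6 list held 14 genes, known targets and parts of the pathway such as receptor subunits. Of these 9 were tested, 7 of them higher than 0 and 2 lower, with a receptor subunit on each side. Their median was 0.17, or 0.05 without control replicate 2 and 0.04 without knockdown replicate 3. Past an unadjusted p of 0.05 in limma, 1 of the 9 was higher and 0 were lower, against 3.8% and 2.54% of all tested genes. SAA1, an acute-phase protein, had 13 and 38 reads in knockdown and 0, 1 and 10 reads in control (log2 difference 1.72, SE 0.47, limma adjusted p = 0.71), while FGG, a fibrinogen chain, was at 98.3 and 113.3 RPKM in knockdown, against 96.3, 82.0 and 96.7 RPKM in control (log2 difference 0.21, SE 0.17, limma adjusted p = 0.77).

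Hepatocyte markers went both ways, with 6 of the 13 higher than 0 and 7 lower. At an unadjusted p under 0.05 in limma, 2 were higher and 1 was lower, against 3.8% and 2.54% of all tested genes. Both knockdown libraries were above all controls for 3 and below them for 1, against 14.3% and 13.6%. SERPINA1 and TF, which encode secreted liver proteins, had log2 differences of 0.54 (SE 0.17) and 0.43 (SE 0.15), while APOB, the main protein of the lipoproteins that liver secretes, had the largest in size of the list, -0.88 (SE 0.34). CD3D, a T cell marker, differed by 0.63 (SE 0.20), while PTPRC, which marks blood cells as a class, stayed at 0.0713 RPKM or below in all 5 libraries. LYZ, lysozyme, differed by -0.06 (SE 0.18). Of the 4 fibroblast and endothelial markers tested, the collagen chains COL1A2 and COL1A1 differed by 0.51 (SE 0.23) and 0.66 (SE 0.34), and the endothelial marker PECAM1 and the fibroblast marker LUM by -0.36 (SE 0.24) and -0.14 (SE 0.16). No marker passed (limma adjusted p), and their part in the metallothionein values was not tested.

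The 5 genes outside these lists whose pattern over the 5 libraries was most like that of the summed metallothioneins were RAB1A, DPCD, HNRNPUL2, SPINK1 and RPL37. Pearson's r on log2(RPKM + 0.5) was 0.995 to 0.997 for them, among 6994 genes with a mean of at least 5 RPKM, of which 87 had r above 0.95. With 5 libraries such values are a description only, and r does not measure the size of a change. RAB1A was at 98.02 and 99.55 RPKM in knockdown replicates 1 and 3, against 98.26, 95.74 and 93.19 RPKM in control replicates 1, 2 and 3. HNRNPUL2 was at 10.71 and 11.15 RPKM in knockdown, against 10.78, 9.947 and 9.05 RPKM in control. DPCD was at 12.4 and 14.63 RPKM in knockdown, against 11.47, 9.557 and 6.888 RPKM in control. SPINK1, a secreted trypsin inhibitor, was at 299.1 and 332.0 RPKM in knockdown replicates 1 and 3, against 287.4, 220.5 and 151.2 RPKM in control replicates 1, 2 and 3. RPL37, a ribosomal protein, was at 277.8 and 327.4 RPKM in knockdown, against 285.1, 200.9 and 130.5 RPKM in control, so control replicate 3 was lowest for both, as it was for the sum.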

How the data were processed

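The authors deposited 1 table of RPKM values, with 1 column per library, as the labels' description field states. HISAT2 and build GRCh38 are named, per the submitters' processing notes. The counter, its annotation, strand setting and filters were not given in the sources used here, so overlapping genes stay uncertain. GENCODE release 29 held each of the 58676 gene IDs, and gave symbols, coordinates, exon lengths and transcripts. In 5 libraries, 100% of the nonzero products of RPKM and exon length were whole numbers of reads (tolerance 0.002 of a read). This share was 0.378% in knockdown replicate 2, which was left out.

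Genes that reached 0.5 RPKM in 3 or more libraries were tested with limma 3.58.1 in R 4.3.3 (mean-variance trend, two-sided) on log2(RPKM + 0.5), without covariates, with Benjamini-Hochberg adjustment over all 15408 genes. Fold changes on this scale understate changes of low genes. Intervals are 95%. The code was tested on simulated data. The members and lists were chosen with earlier results of these data known. The text names the 10 members, from each other list the genes past the threshold or, with none, the 2 of smallest unadjusted p, other metallothionein genes with at least 10 reads, and the 5 genes of most similar pattern. ALB, AFP, APOB, LUM, PECAM1, PTPRC, HMOX1, GCLC, GCLM, HSPA1A, SLC39A5, SLC39A7, SLC39A9, MT3 and MT4 were named besides, after their values were seen. Alternatives were other pseudocounts, filters and scalings, no trend, the replicate number as a block, limma voom on the recovered reads, removal of length and GC trends (natural splines), all 6 columns, and leaving out each library. Not every listed gene is named.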

Additional observations from a re-analysis of the deposited data

How the results depend on the processing

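Under the 17 alternatives on the 5 libraries, MT2A (0.32 to 0.84), MT1E (0.42 to 0.84) and MT1F (0.40 to 0.61) kept a log2 difference above 0 and MTF1 (-0.28 to -0.05), SLC30A1 (-0.61 to -0.13) and SLC39A14 (-0.49 to -0.12) one below it, and none of the 8 tested genes passed. The summed metallothionein difference of 0.54 ranged from 0.33 to 0.74. Leaving out 1 library gave -0.15 to 0.15 for MT1G and -0.15 to 0.68 for MT1X, and MT1G was at -0.09 with length and GC trends removed. Leaving out a knockdown replicate leaves 1 library, assumed to vary like the controls. All 6 columns as deposited, where knockdown replicate 2 does not follow the gene IDs and the median of all genes moved to -0.91, gave -1.68 for MT2A, -1.14 for MT1E, -0.87 for MT1F, -1.20 for MT1G, -0.55 for MT1X and -0.60 for the sum. The count of genes past the threshold was 0 in each direction, also with limma voom, against 3 higher and 1 lower with voom sample weights, and 33 higher and 7 lower with the replicate block, which leaves 1 residual degree of freedom. The cause was not tested. The replicate number is shared, and the labels state no pairing. Deviations from the group means correlated at -0.17 for replicate 1 and 0.02 for replicate 3. With 2 knockdown libraries their deviations mirror each other, so these values cannot decide whether the libraries are paired. With the block MT2A was at 0.64 and MT1X at 0.05. Low reads limit MT1M, MT1H and control replicate 2.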
